A study of Mus musculus with 18 samples.

Results

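Serpinb1a, Paqr7, Tlr12, Ermp1, Slc13a3, Acss3 and 4930480G23Rik are 7 genes of mouse liver, described here across 6 groups of samples. They were picked by hand, from genes outside the standard metabolic pathways, because their levels were lower under CR on both diets. They are 7 of 24040 genes in the table, and all 7 are among the 10358 genes tested, which had 1 RPKM or more in 3 or more of 18 libraries. RPKM is the number of reads scaled to transcript length and to library size. Since the CR difference chose the genes, it is given below as a description without a test, and the tests are of Ex and of diet. Of these only HF+Ex against LF+Ex compares groups that had no part in the choice.

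The samples were livers of wild type C57BL/6J mice, sequenced as polyA RNA in 18 libraries, 3 per group. On the LF diet they were the LF control, LF+CR and LF+Ex, and on the HF diet the HF control, HF+CR and HF+Ex. The labels do not spell these out, and LF is taken to mean low fat, HF high fat, CR caloric restriction and Ex exercise. Treatment ran from 5 weeks of age, and the liver was collected at 62 weeks. The labels state neither sex, nor how CR and Ex were carried out, nor that each library was 1 animal, so the p-values measure the spread between libraries, which may be technical.

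The 7 genes have little in common by known function. Serpinb1a encodes a cytosolic inhibitor of the serine proteases of neutrophils and has been described as a protein released by hepatocytes that acts on pancreatic beta cells. Paqr7 encodes membrane progestin receptor alpha, a receptor of the progestin and adipoQ receptor family. Tlr12 encodes an endosomal Toll-like receptor of mice that senses profilin of protozoan parasites together with Tlr11. Ermp1 encodes a metallopeptidase of the M28 family in the membrane of the endoplasmic reticulum. Slc13a3 encodes a sodium-coupled carrier that takes up succinate and other dicarboxylates, best known from kidney tubules. Acss3 encodes a mitochondrial short-chain acyl-CoA synthetase that prefers propionate. 4930480G23Rik is an annotated long noncoding RNA.

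Depth is not stated. Steps between the lowest values gave an estimate of 22 to 38.3 M reads when searched between 20 and 60 M, and a search without these bounds gave lower values for some libraries, so the range depends on the bounds. In each library 9071 to 9999 genes were at 1 RPKM or more. Pancreatic enzyme transcripts stood out in LF+CR 1, HF+CR 1 and LF+Ex 1, where 8 listed markers summed to 1650, 292 and 34.8 RPKM (the pancreas libraries). HF+CR 2 summed to 38.6 RPKM, of which Cela1 alone made 38.4 RPKM. Bile duct markers stood out in LF 2 and HF+CR 3, at sums of 147 and 166 RPKM (the bile duct libraries). Spp1 alone made 138 and 155 RPKM of these sums. Krt7, Epcam and Sox9 were also highest in these libraries, but Krt19 was highest in LF+Ex 1, at 7.87 RPKM. All 8 hepatocyte markers were present, although Alb was listed at 0 in 14 libraries and was above 0 only in HF 1 and in the 3 HF+Ex libraries. Whole liver was sequenced, so fewer cells of a type and less RNA per cell cannot be told apart.

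Promoter windows, 250 bases before to 50 after a RefSeq start site on GRCm38.p6, were available for 4 of the 7 genes, in 5 windows. One window of each of these 4 genes is shown because all 4 were lower under CR on both diets, and the capitals mark matches to the motifs searched, on either strand. The Slc13a3 window is chr2:165473148-165473447 on the minus strand, that of Ermp1 chr19:29648366-29648665 on the minus strand, that of Tlr12 chr4:128618570-128618869 on the minus strand, and the downstream of the Paqr7 windows chr4:134496791-134497090 on the plus strand.
Slc13a3: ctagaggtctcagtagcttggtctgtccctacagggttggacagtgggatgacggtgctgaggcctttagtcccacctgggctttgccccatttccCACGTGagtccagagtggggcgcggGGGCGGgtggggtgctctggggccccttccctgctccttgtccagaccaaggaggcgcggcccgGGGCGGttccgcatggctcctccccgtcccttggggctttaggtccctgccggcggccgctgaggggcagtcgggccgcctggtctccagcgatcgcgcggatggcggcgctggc
Paqr7: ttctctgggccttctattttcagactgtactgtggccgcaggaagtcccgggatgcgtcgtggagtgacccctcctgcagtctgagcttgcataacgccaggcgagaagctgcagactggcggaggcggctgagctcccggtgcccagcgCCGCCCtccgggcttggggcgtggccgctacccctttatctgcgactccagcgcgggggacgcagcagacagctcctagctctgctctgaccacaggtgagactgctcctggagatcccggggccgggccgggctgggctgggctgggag
Ermp1: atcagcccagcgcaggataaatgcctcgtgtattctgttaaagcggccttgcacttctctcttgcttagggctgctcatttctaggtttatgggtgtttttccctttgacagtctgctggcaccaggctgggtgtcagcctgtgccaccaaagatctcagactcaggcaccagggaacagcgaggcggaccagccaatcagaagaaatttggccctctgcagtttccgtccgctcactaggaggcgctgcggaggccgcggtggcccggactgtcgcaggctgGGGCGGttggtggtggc
Tlr12: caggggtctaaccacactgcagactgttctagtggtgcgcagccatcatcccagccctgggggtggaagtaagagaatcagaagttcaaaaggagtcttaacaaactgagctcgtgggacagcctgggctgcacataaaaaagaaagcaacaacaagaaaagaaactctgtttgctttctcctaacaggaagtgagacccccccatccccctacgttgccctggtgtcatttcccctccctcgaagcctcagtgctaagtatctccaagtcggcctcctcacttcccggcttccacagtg

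A GC box, GGGCGG, was in 3 of the 5 windows, and 35.7% of all 32851 RefSeq promoter windows of this length held it. Slc13a3 had it at 129 and 65 bases before the start site, Paqr7 on the opposite strand 100 bases before, and Ermp1 33 bases after. Slc13a3 also held the E-box CACGTG 154 bases before its start, a motif present in 7.15% of all windows. No window held TATAAA (13.6% of all), the forkhead motif TGTTTAC (3.65%), the nuclear receptor half-site AGGTCA (16.3%) or the STAT5 motif TTCNNNGAA (8.3%). The windows of Slc13a3 and Ermp1 and the one printed for Paqr7 were rich in CpG, with 22, 14 and 21 CpG sites against a median of 7 over all windows. Tlr12 had 6 CpG sites, and the upstream Paqr7 window, at chr4:134496511-134496810 with none of the motifs, had 7.

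**Figure D1:**
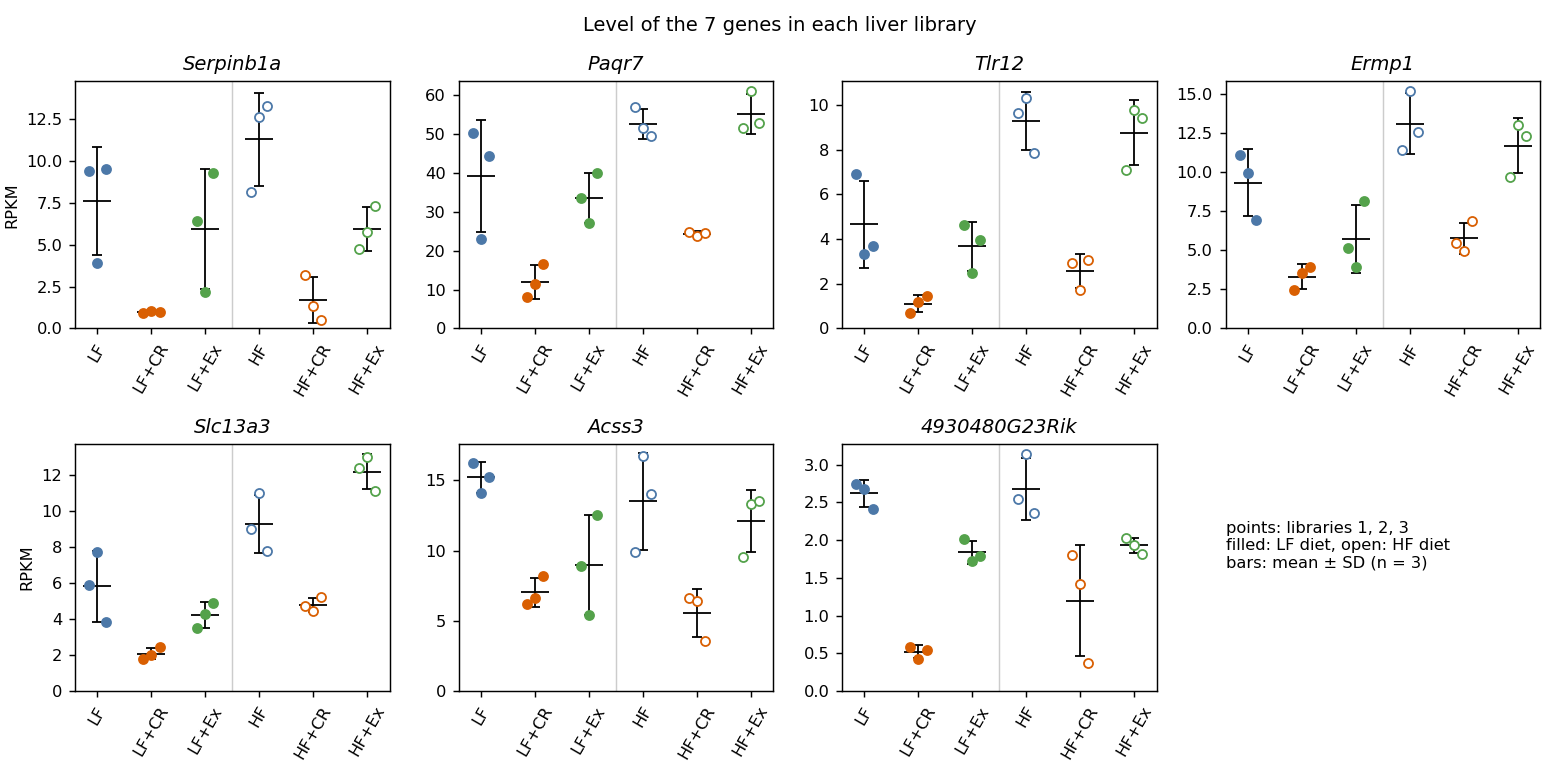
RPKM of the 7 genes in each of the 18 liver libraries, by group. Points are libraries 1, 2 and 3, filled on the LF diet and open on the HF diet, and bars are the mean ± SD of 3 libraries. In each gene all 3 CR libraries lie below all 3 control libraries of the same diet.

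Serpinb1a (NM_025429, chr13:32842092-32853206 on GRCm38.p6, protein coding) was the gene with the widest distance between CR and control. Its libraries 1, 2 and 3 were at 9.42, 3.91 and 9.53 RPKM in LF and at 0.942, 1.02 and 0.969 RPKM in LF+CR. In HF they were at 8.16, 12.6 and 13.3 RPKM and in HF+CR at 3.20, 1.32 and 0.520 RPKM. CR libraries thus lay below every control of their diet, at 12.8% of the LF mean and 14.8% of the HF mean, with log2 differences of -2.04 ± 0.41 (SE) and -2.30 ± 0.41. LF+Ex libraries were at 6.40, 2.17 and 9.28 RPKM, and HF+Ex libraries at 4.72, 5.76 and 7.33 RPKM. LF+Ex overlapped LF, whereas the 3 HF+Ex libraries lay below the 3 HF libraries. In order of mean level, LF+CR and HF+CR overlapped each other at the bottom, and HF+Ex, LF+Ex, LF and HF followed, each overlapping its neighbour in that order. LF+Ex 2, at 2.17 RPKM, also lay within the HF+CR range.

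LF 2, the library lowest for Serpinb1a in LF, is one of the bile duct libraries and also had the highest neutrophil markers. Neutrophil markers summed to 0.446 to 40.9 RPKM in LF, 0.384 to 0.770 RPKM in LF+CR, and on the HF diet to 2.98 to 14.6 RPKM in the controls and 3.08 to 10.9 RPKM with CR. The same sum was 0.891 to 2.39 RPKM in LF+Ex and 7.10 to 12.6 RPKM in HF+Ex. Of the 9 markers listed, 8 were in the table and 2 reached 1 RPKM in 3 libraries, and the granule genes Mpo, Ngp and Camp were at 0 in every library. The group medians of the sum were 4.53 RPKM in LF, 0.480 RPKM in LF+CR, 12.3 RPKM in HF and 7.86 RPKM in HF+CR, and the part of these cells in the Serpinb1a levels was not tested. Without the bile duct libraries its CR differences were -2.41 on LF and -1.95 on HF, and without the pancreas libraries -2.03 and -2.69. Its family members nearest by name, Serpinb1b and Serpinb1c, averaged at most 0.00691 RPKM in any group. How reads that match several genes were treated is not stated.

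Paqr7 (NM_027995, chr4:134496761-134510237, protein coding) was the most abundant of the 7, at percentile 85.6 of mean RPKM among the genes tested. Its levels were 50.4, 22.9 and 44.4 RPKM in LF and 8.06, 11.4 and 16.7 RPKM in LF+CR. HF libraries held 57.1, 51.6 and 49.6 RPKM, and HF+CR libraries 24.9, 23.7 and 24.6 RPKM. All CR libraries were below their controls, with the narrowest gap between LF+CR 3 and LF 2, and the log2 differences were -1.61 ± 0.25 on LF and -1.08 ± 0.25 on HF. Under Ex the levels were 33.6, 27.1 and 39.9 RPKM in LF+Ex and 51.5, 61.0 and 52.9 RPKM in HF+Ex. Both Ex groups overlapped their controls. By mean, LF+CR was lowest, HF+CR next and apart from it, and LF+Ex, LF, HF and HF+Ex followed, each overlapping its neighbour above HF+CR. HF+CR was not apart from LF, since LF 2, at 22.9 RPKM, lay below every HF+CR library.

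Tlr12 (NM_205823, chr4:128615446-128618619, protein coding) was at 6.90, 3.35 and 3.69 RPKM in LF and at 0.678, 1.20 and 1.44 RPKM in LF+CR. It was at 9.65, 10.3 and 7.85 RPKM in HF and at 2.92, 1.70 and 3.06 RPKM in HF+CR. The CR means were 23.8% of LF and 27.6% of HF, with log2 differences of -1.39 ± 0.24 and -1.55 ± 0.24. LF+Ex libraries were at 4.61, 2.48 and 3.94 RPKM, and HF+Ex libraries at 7.07, 9.76 and 9.43 RPKM. The HF and HF+Ex libraries were all above the LF and LF+Ex libraries, and Ex overlapped its control on both diets. From low to high the means ran LF+CR, HF+CR, LF+Ex, LF, HF+Ex and HF, where HF+CR overlapped LF+Ex, LF+Ex overlapped LF, and HF+Ex overlapped HF.

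Toll-like receptors are best known from immune cells, and markers of such cells were summed in each library. Macrophage markers, 7 in the table of 8 listed and none at 0 throughout, summed to 90.0 to 179 RPKM in LF, 67.1 to 104 RPKM in LF+CR and 100 to 137 RPKM in LF+Ex. On the HF diet they summed to 128 to 287 RPKM in HF, 125 to 136 RPKM in HF+CR and 181 to 205 RPKM in HF+Ex. Cd5l was the largest part of the sum in the HF+Ex libraries, at 129, 102 and 110 RPKM. The markers did not move together. Cd5l, Adgre1 and Csf1r were higher in every HF+Ex library than in any LF library. Marco, Timd4 and Vsig4 were lower than in any LF library in HF+Ex 1 and HF+Ex 3, but not in HF+Ex 2. Of 5 plasmacytoid dendritic cell markers 2 reached 1 RPKM in 3 libraries, and Bst2 made up nearly all of their sum of 126 to 425 RPKM, while Cd209d was at 0 throughout. The part of these cells in the Tlr12 levels was not tested.

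Ermp1 (NM_001081213, chr19:29609876-29648415, protein coding) was at 11.1, 9.96 and 6.95 RPKM in LF and at 2.43, 3.54 and 3.96 RPKM in LF+CR. HF libraries were at 11.4, 15.2 and 12.6 RPKM, and HF+CR libraries at 5.46, 4.98 and 6.87 RPKM. The highest HF+CR library lay just under the lowest LF library, and the log2 differences under CR were -1.26 ± 0.22 on LF and -1.06 ± 0.22 on HF. With Ex its levels were 5.12, 3.95 and 8.17 RPKM on LF and 9.72, 13 and 12.3 RPKM on HF. LF+Ex reached down to the LF+CR range and up into the LF range. LF+CR, LF+Ex and HF+CR overlapped in order at the low end, and LF, HF+Ex and HF overlapped in order at the high end.

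Slc13a3 (NM_054055, chr2:165405295-165473197, protein coding) was at 5.91, 7.72 and 3.83 RPKM in LF and at 1.81, 2.03 and 2.43 RPKM in LF+CR. In HF it was at 9.02, 11 and 7.81 RPKM and in HF+CR at 4.73, 4.45 and 5.21 RPKM. CR was lower on each diet, at 35.9% of LF and 51.7% of HF, but HF+CR overlapped LF. The log2 differences were -1.10 ± 0.18 and -0.82 ± 0.18. Levels were 3.49, 4.29 and 4.92 RPKM in LF+Ex and 12.4, 13 and 11.1 RPKM in HF+Ex. Slc13a3 was the only one of the 7 whose HF+Ex libraries all lay above the HF libraries. LF+CR stood alone at the bottom, LF+Ex, HF+CR and LF overlapped in order, and HF and then HF+Ex stood apart above them. Kidney tubule markers were close to absent, with 4 of 6 (Umod, Slc12a1, Slc22a8 and Aqp2) at 0 in all libraries and sums of at most 0.484 RPKM.

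Acss3 (NM_001142804, chr10:106933514-107123761, protein coding) was at 16.2, 14.1 and 15.2 RPKM in LF and at 6.23, 6.65 and 8.17 RPKM in LF+CR. It was at 9.89, 16.7 and 14 RPKM in HF and at 6.65, 6.39 and 3.56 RPKM in HF+CR. CR libraries were at 46.3% of LF and 40.9% of HF by their means, with log2 differences of -1.02 ± 0.26 and -1.16 ± 0.26. LF+Ex libraries were at 8.93, 5.39 and 12.5 RPKM, and HF+Ex libraries at 9.55, 13.3 and 13.5 RPKM. On LF the 3 Ex libraries lay below the 3 controls and overlapped LF+CR, and on HF they overlapped the controls. Neighbouring groups in the order HF+CR, LF+CR, LF+Ex, HF+Ex, HF and LF all overlapped. A second transcript row of Acss3, NM_198636, did not exceed 0.1875 RPKM in any library.

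4930480G23Rik (NR_040768, chr4:19979445-20005739) was the least abundant, at percentile 18.3 of mean RPKM. It was at 2.75, 2.68 and 2.42 RPKM in LF and at 0.591, 0.426 and 0.548 RPKM in LF+CR. In HF it was at 2.55, 3.14 and 2.36 RPKM and in HF+CR at 1.80, 1.42 and 0.368 RPKM. The HF+CR libraries were spread widely, with HF+CR 3, a bile duct library, down among LF+CR. The log2 differences were -1.25 ± 0.19 on LF and -0.80 ± 0.19 on HF, and -1.24 and -0.50 without the bile duct libraries. Ex libraries were close together, at 2.01, 1.73 and 1.79 RPKM in LF+Ex and 2.03, 1.93 and 1.82 RPKM in HF+Ex. All 6 lay below the controls of their diet and above the LF+CR libraries, and HF+CR overlapped LF+CR and LF+Ex. LF and HF overlapped at the top.

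Across the 7 genes the CR libraries did not overlap their controls in either diet, which follows from the choice of the genes. Over all genes tested, 11.7% were lower without overlap in LF+CR and 8.28% in HF+CR, and 2.38% were so on both diets. By adjusted p from limma under 0.05, 6.5% of genes were called in LF+CR against LF and 1.4% in HF+CR against HF in either direction (145 genes, and 12 without HF 2), and 24 genes (0.232%) were lower in both. Median log2 differences of the 7 genes were -1.26 on LF and -1.08 on HF, against 0.00 and 0.01 for all genes tested. The difference between the diets in this measure was at most 0.53 (Paqr7, less negative on HF). Without the pancreas libraries, which hold 1 of the 3 libraries of each CR group, the differences ran from -2.03 to -0.95 on LF and from -2.69 to -0.81 on HF.

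**Figure D2:**
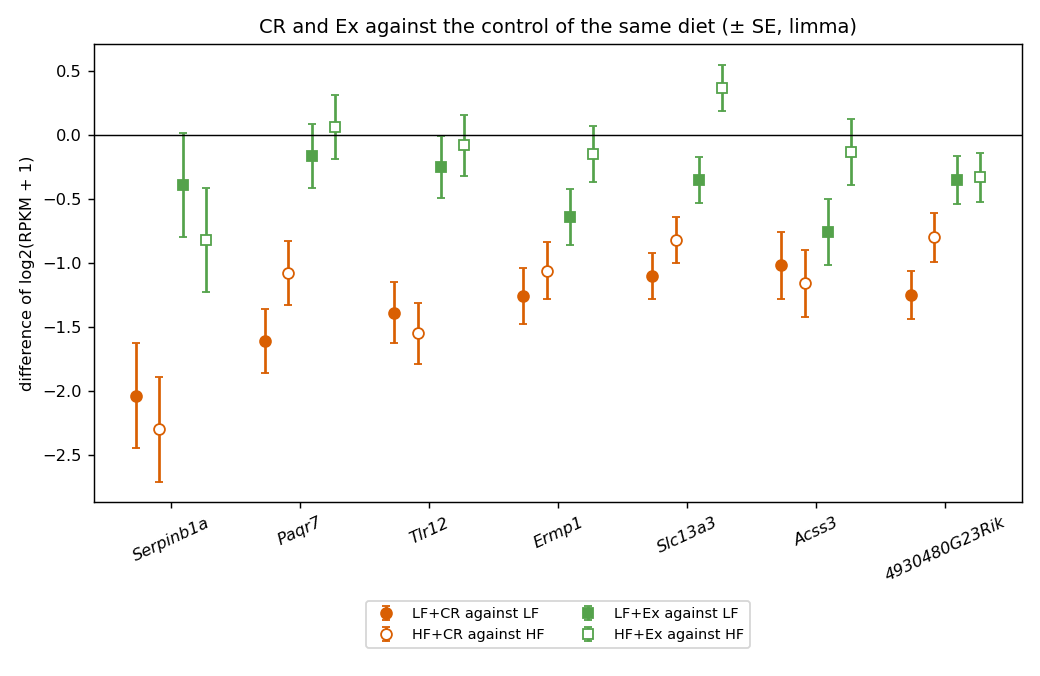
Differences of log2(RPKM + 1) of CR (circles) and Ex (squares) from the control of the same diet, filled on LF and open on HF, with the SE from limma. The CR differences run from -2.30 to -0.80, and the Ex differences from -0.82 to 0.37.

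Ex left no gene of the 7 past the threshold. In LF+Ex against LF and in HF+Ex against HF limma called 0 of the 7 at an adjusted p under 0.05, and so it did for Ex averaged over both diets and for the difference of the Ex effects between the diets. In these comparisons 0% of all genes were called, so a count of 0 is also the background. At an unadjusted p under 0.05 the numbers were 2, 0, 3 and 1 of the 7 in these 4 comparisons, where 9.11%, 3.64%, 7.04% and 5.07% of all genes were. These tests use the same LF and HF controls by which the genes were chosen. Genes high in these controls were favoured by the choice, which by itself pushes Ex differences below 0. The same limit holds for the Ex differences from control described below, on each diet and averaged.

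The nearest to a difference on LF were Acss3, at -0.76 ± 0.26 (adjusted p = 0.514 from limma), and Ermp1, at -0.64 ± 0.22 (adjusted p = 0.516). Acss3 and 4930480G23Rik were lower without overlap in LF+Ex, as were 11.4% of all genes. On HF the farthest was Serpinb1a at -0.82 ± 0.41, with an adjusted p of 1.0, and Serpinb1a and 4930480G23Rik were lower without overlap, as were 8.06% of all genes. The median over the 7 genes was -0.35 on LF, where the median of all genes was itself -0.13, and -0.13 on HF, where it was -0.02. The shift of all genes on LF was 0.01 after median-of-ratios scaling and 0.00 after quantile normalization, and the Paqr7 difference of -0.16 became 0.00 with the first.

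Averaged over both diets, the Ex differences were -0.60 ± 0.29 for Serpinb1a, -0.45 ± 0.18 for Acss3, -0.40 ± 0.16 for Ermp1 and -0.34 ± 0.13 for 4930480G23Rik, with adjusted p of 0.700 to 0.703 from limma. Tlr12 was at -0.16 ± 0.17, Paqr7 at -0.05 ± 0.18 and Slc13a3 at 0.01 ± 0.13, and the sign of the last 2 depended on scaling or pseudocount. Slc13a3 had the largest difference between the diets in its Ex effect, 0.72 ± 0.25, from -0.35 on LF to 0.37 on HF, with an unadjusted p of 0.0122 and an adjusted p of 0.818. The other 6 interactions lay between -0.44 and 0.63.

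Set beside CR, the Ex means were higher in all 7 genes on both diets, given here as a description because the CR groups chose the genes. On HF no Ex library overlapped a CR library in any of the 7, and on LF none did in 5, with overlap in Ermp1 and Acss3. Of all genes 8.19% were higher without overlap in HF+Ex against HF+CR and 7.4% in LF+Ex against LF+CR, and nothing is read from the counts of the 7. The ratio of the Ex to the CR mean was widest for Serpinb1a, 6.09 on LF and 3.53 on HF, and narrowest for Acss3 on LF at 1.27 and for 4930480G23Rik on HF at 1.61.

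The HF and LF diets were compared under each treatment to ask whether diet set the level of these genes. Under Ex, Slc13a3, the dicarboxylate carrier, and Tlr12 and Ermp1 were called higher on HF, and Paqr7, Serpinb1a, Acss3 and the noncoding RNA were not called. The choice of the genes used all 4 of the LF, HF, LF+CR and HF+CR groups, within diets. The comparisons HF+CR against LF+CR and HF against LF therefore consist of libraries that chose the genes, and their values are given as a description that supports nothing.

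**Figure D3:**
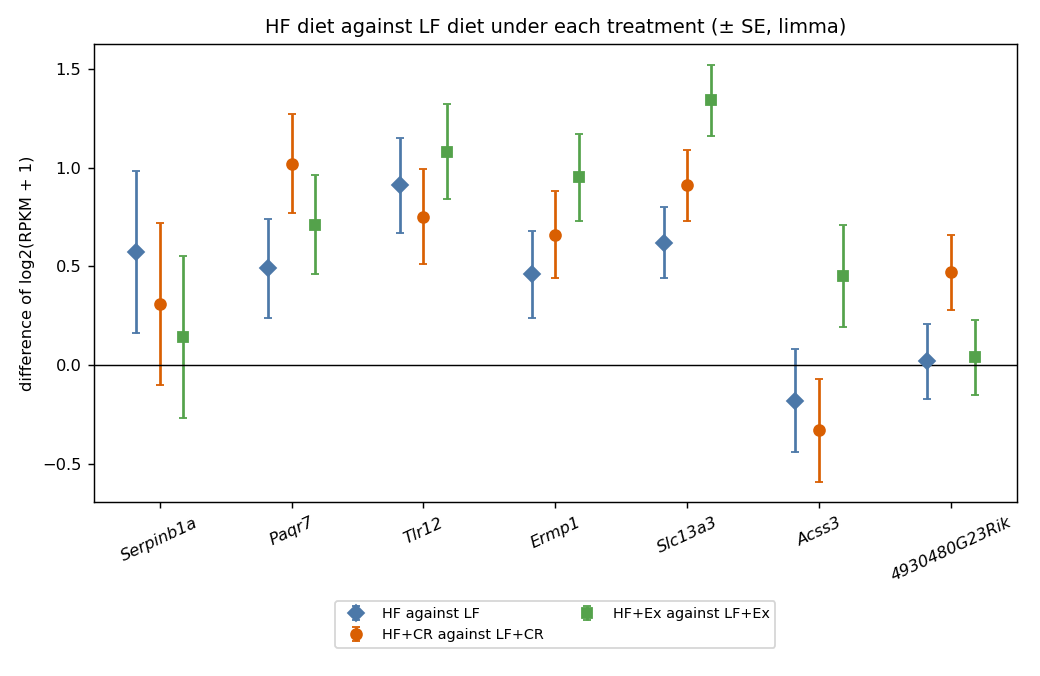
Differences of log2(RPKM + 1) between the HF and the LF diet for each gene without treatment (diamonds), under CR (circles) and under Ex (squares), with the SE from limma. Paqr7, Tlr12, Ermp1 and Slc13a3 lie between 0.46 and 1.34 in all 3 comparisons, and Serpinb1a, Acss3 and 4930480G23Rik between -0.33 and 0.57.

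In HF+Ex against LF+Ex limma called 3 of the 7 genes, all higher, and 4.13% of all genes were called higher. Slc13a3 was at 12.2 ± 0.983 RPKM (SD, n = 3) in HF+Ex and 4.24 ± 0.718 RPKM in LF+Ex, a ratio of 2.88 and a log2 difference of 1.34 ± 0.18 (limma adjusted p = 0.00274). Tlr12 was 2.38 times as high, 1.08 ± 0.24 (adjusted p = 0.0249), and Ermp1 2.03 times, 0.95 ± 0.22 (adjusted p = 0.0265). These 3 and Paqr7 did not overlap between the diets, as was so, higher, for 24.2% of all genes. Paqr7 differed by 0.71 ± 0.25 and was not called (adjusted p = 0.108). Alb was above 0 in all HF+Ex libraries and at 0 in all LF+Ex libraries, and of the 533 genes called in this comparison 80.3% were higher, against 54.8% and 52.9% under median-of-ratios and quantile scaling.

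Slc13a3 was called without each library in turn in this comparison. Tlr12 and Ermp1 lost their calls without LF+Ex 1, a pancreas library, with differences of 1.22 and 0.90 (adjusted p = 0.0569 and 0.104). They were likewise not called without LF+Ex 2 (adjusted p = 0.108 and 0.114), without HF+Ex 2 (0.0873 and 0.0971) or without HF+Ex 3 (0.0886 and 0.0916), and Ermp1 not without HF+Ex 1 (0.0544). Paqr7 was called without LF 2, at an adjusted p of 0.0406.

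Between the diets under CR, Slc13a3 averaged 4.79 ± 0.381 RPKM on HF against 2.09 ± 0.314 RPKM on LF, a log2 difference of 0.91 ± 0.18. Paqr7 was at 24.4 ± 0.623 and 12 ± 4.35 RPKM, a log2 difference of 1.02 ± 0.25. Tlr12 was at 0.75 ± 0.24 and Ermp1 at 0.66 ± 0.22 on the same scale. These 4 genes did not overlap between the groups, against 15.6% of all genes that were higher without overlap. 4930480G23Rik overlapped through HF+CR 3, at 0.47 ± 0.19, and was at 0.78 ± 0.12 without that library. Without the 3 pancreas libraries the differences were 0.77 ± 0.30 for Paqr7 and 0.85 ± 0.23 for Slc13a3. The fit over all genes put 2 of the 7 (Slc13a3 and Paqr7) past the threshold and none without the pancreas libraries, where 4.7% of all genes were called higher in the full fit, and nothing is read from this count.

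Without CR or Ex, Tlr12 was higher on HF by 0.91 ± 0.24 on the log2 scale and Slc13a3 by 0.62 ± 0.18. Tlr12, Ermp1 and Slc13a3 were higher without overlap, as were 7.96% of all genes. Acss3 was at -0.18 ± 0.26 and 4930480G23Rik at 0.02 ± 0.19. None of the 7 passed the threshold in the fit over all genes, where 0.405% of all genes did, and 2 of the 7 were at an unadjusted p under 0.05, where 16.8% of all genes were. Nothing is read from these counts either.

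The 7 genes varied together over the libraries. Pearson correlations of log2(RPKM + 1) over the 18 libraries, given as a description, were 0.527 to 0.941 for the 21 pairs, and 0.681 to 0.924 once each diet's mean was subtracted. All of these contain the CR difference that chose the genes. With the mean of each of the 6 groups subtracted they ran from -0.318 to 0.827 with a median of 0.391, and 16 of 21 were above 0. The highest of these was Serpinb1a with Acss3. Points share the library, and so its depth and its cell content.

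For each gene the 3 most similar tested genes were taken by the correlation with diet means subtracted. The 7 genes themselves and genes with provisional names (Gm or LOC with digits, names ending in Rik, bare identifiers) were left out. Among the 7, Paqr7 with Tlr12 was at 0.924 on this measure, above the nearest gene listed for Paqr7. Serpinb1a was nearest to Clstn3 (r = 0.953), Pmm1 (0.931) and Uck1 (0.922), and Paqr7 to Fitm1 (0.915), Fitm2 (0.905) and C4b (0.904). Fitm1 and Fitm2 encode proteins of the endoplasmic reticulum that promote lipid droplet formation. Tlr12 was nearest to Plin4 (0.942), a lipid droplet coat protein, then Cd81 (0.939) and Wfdc2 (0.937). Ermp1 was nearest to Atp9a (0.938), Ift52 (0.932) and Ifit1 (0.929), and Slc13a3 to Rogdi (0.963), Ifit1 (0.939) and Gbp10 (0.912). Ifit1 and Gbp10 are interferon-induced genes. The genes near Acss3 included Mogat1 (0.927), an acyltransferase of triglyceride synthesis, and Uck1 (0.908). 4930480G23Rik was nearest to Tlr5 (0.905), Acat3 (0.903) and Fitm1 (0.902). This measure keeps the CR difference, so a lower level under CR in these genes follows from how they were picked, as in Plin4, at -1.77 on LF and -3.44 on HF.

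Families and pathways of the 7 genes were followed through 6 lists of related genes that leave out the 7 themselves, with 55 genes tested. The lists were chosen with earlier results of these data known, so nothing is read from an excess over the share of all genes. In LF+CR against LF, where 6.5% of all genes were called, limma called 7 of the 55 lower and 2 higher. In HF+CR against HF, where 1.4% of all genes were called, it called 1, lower. Under Ex it called 0 on either diet, as over all genes. At an unadjusted p under 0.05 there were 4 in LF+Ex and 0 in HF+Ex, against 9.11% and 3.64% of all genes. List medians under CR were -0.06 on LF and -0.08 on HF, against 0.00 and 0.01 for all genes. The 9 calls on LF became 4 without the pancreas libraries, 3 without LF 1, and 4 without LF+CR 2. On HF the single call became 4 without the bile duct libraries, 3 of them higher, 3 without HF+CR 3 alone, 2 without HF 1, 3 with the replicate number as a block, and 0 without HF 2.

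Among the progestin and adipoQ receptors and progesterone membrane components, 2 of 8 tested fell in LF+CR and none was called in HF+CR. Paqr9, a family member abundant in liver, fell from 101 ± 43.1 to 23.1 ± 7.43 RPKM, a log2 difference of -2.05 ± 0.43 (limma adjusted p = 0.0112). On HF it was at 78.6 ± 4.93 and 68.6 ± 29.3 RPKM, -0.30 ± 0.43 (adjusted p = 0.818). Its LF call was lost without LF 1 (adjusted p = 0.0607) or LF+CR 2 (0.0519). Mmd, a macrophage differentiation gene of the same family, fell on LF by 0.74 (SE 0.17, adjusted p = 0.0192), and was not called without LF 1 (0.0758), LF+CR 1 (0.0618) or LF+CR 3 (0.0548). Paqr8, the nearest relative of Paqr7 in function, was at or below 0.0340 RPKM in every group mean and was not tested.

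Of 12 Toll-like receptors and adaptors tested, Tlr5, the flagellin receptor, fell in LF+CR from 3.29 ± 0.864 to 0.824 ± 0.270 RPKM, -1.22 ± 0.22 (limma adjusted p = 0.00526). On HF it was at 4.25 ± 0.137 and 2.5 ± 1 RPKM, -0.63 ± 0.22 (adjusted p = 0.197). Unc93b1, the chaperone that endosomal Toll-like receptors need, was at -0.48 ± 0.18 on LF (adjusted p = 0.127) and -0.31 ± 0.18 on HF (adjusted p = 0.473), not called. Also not called were Cnpy3, at -0.29 on LF and -0.25 on HF, and Hsp90b1, at 0.09 and 0.25. Tlr11, the partner of Tlr12, was at most 0.0492 RPKM in a group mean, and Tlr13 at most 0.793 RPKM, both below the level tested.

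The list of dicarboxylate and tricarboxylate carriers, which also holds related genes such as Sucnr1, had 1 of 6 tested genes called on both diets. Slc25a10, the mitochondrial dicarboxylate carrier, fell from 102 ± 19.0 to 60.1 ± 4.54 RPKM on LF, -0.74 ± 0.13 (limma adjusted p = 0.00472), and from 101 ± 8.94 to 55.3 ± 2.96 RPKM on HF, -0.85 ± 0.13 (adjusted p = 0.00822). The HF call was lost without HF 2, at -0.79 (adjusted p = 0.0688). Under Ex it was at -0.43 ± 0.13 on LF (adjusted p = 0.508) and -0.05 ± 0.13 on HF (adjusted p = 1.0). The plasma membrane relatives Slc13a2, at most 0.431 RPKM in a group mean, and Slc13a5, the citrate carrier, at most 0.700 RPKM, were too low to be tested, so Slc13a3 was the only tested gene of its family.

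The short and medium chain acyl-CoA synthetases and propionate enzymes had 4 of 12 genes called in LF+CR, 3 lower and 1 higher, and none in HF+CR. Acss2, the cytosolic acetyl-CoA synthetase, rose from 46.6 ± 18.1 to 150 ± 68.7 RPKM, 1.66 ± 0.45 (limma adjusted p = 0.0402). This is opposite in sign to its mitochondrial relative Acss3, whose sign was fixed by the choice of the genes. Acss2 lost its call without any 1 of LF 1, LF 2 and the 3 LF+CR libraries, with adjusted p of 0.0610 to 0.125. Acss2 also lost it without any 1 of the HF or HF+Ex libraries (0.0505 to 0.0527). On HF it was at 0.95 ± 0.45 (adjusted p = 0.363), and was called without the bile duct libraries at 1.46 (0.0431). Acsf2 fell by 0.66 on LF (SE 0.11, adjusted p = 0.00289). Acsf3 fell by 0.51 (adjusted p = 0.0400) and Acsm1 by 0.45 (adjusted p = 0.0497), and leaving out 1 library could end either call. For Acsf3 any 1 of LF 1, LF 2, LF+CR 1, LF+CR 2, LF+Ex 1, HF+CR 2 and HF+Ex 2 did so (0.0503 to 0.178), and for Acsm1 any 1 of the 18 other than LF+CR 3, LF+Ex 3 and HF+CR 3 (0.0576 to 0.212). Pcca, Pccb and Mmut, which act in turning propionyl-CoA into succinyl-CoA, were between -0.30 and 0.06 on both diets and were not called. The other propionate enzymes listed were not called either. On LF and HF, Mcee was at 0.31 and -0.13, Mmab at 0.60 and 0.77, and Mmaa at -0.06 and -0.14. Acss1 was at most 0.121 RPKM in a group mean.

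In the remaining lists little was called. Of 13 M28 peptidases and peptidases of the endoplasmic reticulum, Spcs3, a subunit of the signal peptidase, rose in LF+CR from 8.01 ± 1.42 to 11.9 ± 0.743 RPKM, 0.53 ± 0.14 (limma adjusted p = 0.0314). That call was lost without LF 1 (0.149), LF 2 (0.0526), LF+CR 1 (0.104) or LF+CR 2 (0.105). Of 19 clade B serpins and neutrophil serine proteases listed, 4 were tested, Serpinb6a, Serpinb6b, Serpinb8 and Serpinb9, and none was called in a CR or Ex comparison, with 0 at an unadjusted p under 0.05. Their log2 differences in LF+CR ran from -0.65 ± 0.31 for Serpinb6b to 0.00 ± 0.21 for Serpinb6a. The targets of Serpinb1a, Elane, Prtn3 and Ctsg, were at most 0.0842 RPKM in a group mean.

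**Figure D4:**
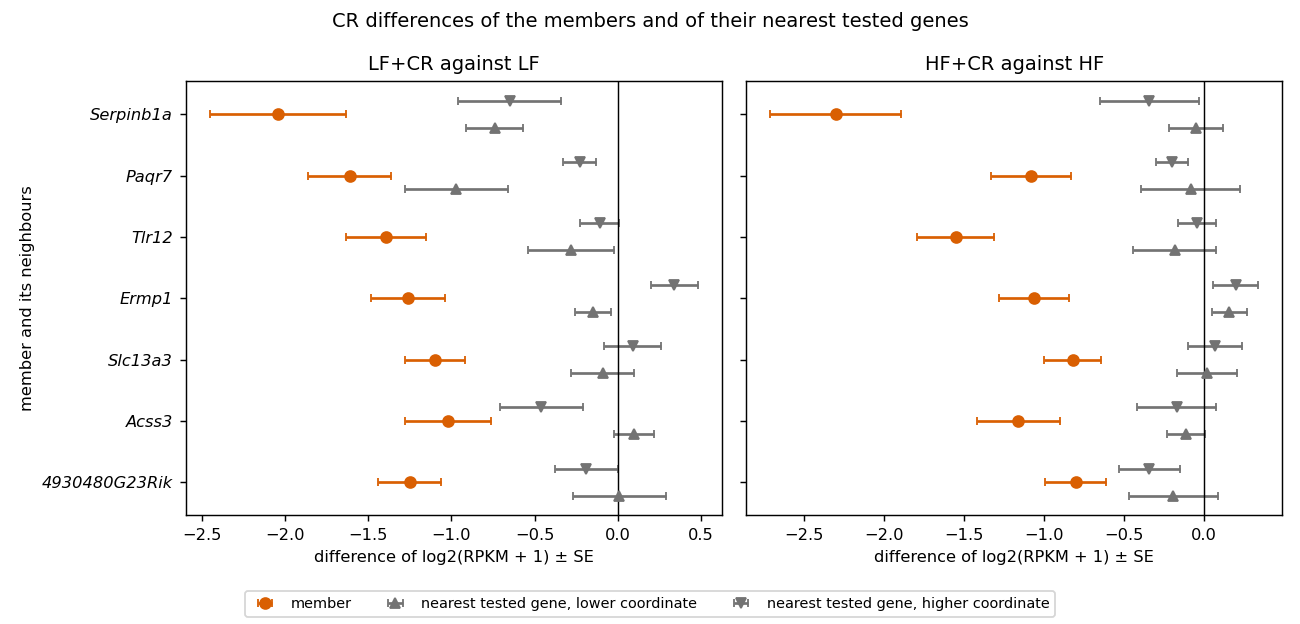
Differences of log2(RPKM + 1) with SE under CR for each of the 7 genes (circles) and for the nearest tested gene on its lower (upward triangles) and higher (downward triangles) coordinate side, on LF and HF. The 14 neighbours lie between -0.97 and 0.34 on LF and between -0.34 and 0.20 on HF, to the right of the gene they flank.

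The nearest tested genes on either side of the 7 on the chromosome make 14 neighbours, of which limma called 1 in LF+CR and 0 in HF+CR, against 6.5% and 1.4% of all genes. Wrnip1, 19.5 kb from Serpinb1a, fell in LF+CR from 20.4 ± 3.39 to 11.8 ± 1.35 RPKM, -0.74 ± 0.17 (limma adjusted p = 0.0199), and was at -0.05 ± 0.17 on HF. Its call was lost without LF 1 (0.0613), LF 2 (0.0657), LF+CR 2 (0.0566) or LF+CR 3 (0.0647). Serpinb6b, on the other side at 103.6 kb, was at -0.65 ± 0.31 and -0.34 ± 0.31. Stmn1, 22.9 kb from Paqr7, was at -0.97 ± 0.31 on LF (adjusted p = 0.0741) and -0.08 ± 0.31 on HF, and Mtfr1l, 15.3 kb away, at -0.23 ± 0.10 and -0.20 ± 0.10.

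Ric1 lies 4.0 kb from Ermp1 and was at -0.15 ± 0.11 and 0.16 ± 0.11. Ttpa, which encodes the vitamin E transfer protein of liver, starts 2.2 kb from 4930480G23Rik on the opposite strand. It was abundant, at 91.3 ± 10.6 RPKM in LF and 81.0 ± 17.1 RPKM in LF+CR, and its differences of -0.19 ± 0.19 and -0.34 ± 0.19 were not called (adjusted p = 0.598 and 0.443). Whether the libraries kept strand is not stated in the sources used here. The neighbours of Tlr12 (Gja4 and Phc2), Slc13a3 (Elmo2 and Trp53rka) and Acss3 (Ccdc59 and Lin7a) lay between -0.46 and 0.10 on LF and between -0.18 and 0.07 on HF. Of these, Gja4 lies 1301.4 kb from Tlr12 and Ccdc59 1086.0 kb from Acss3, so neither is close. Atp6v0d2 and 9930021J03Rik, on the other sides of 4930480G23Rik and Ermp1, were at 0.01 and 0.34 on LF.

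The remaining marker lists bear on what the liver pieces held, and their part in the levels was not tested. Stellate cell markers, all 8 present, summed to 55.2 to 148 RPKM in LF, 76.3 to 88.7 RPKM in LF+CR, 97.8 to 115 RPKM in HF and 78.4 to 135 RPKM in HF+CR. Endothelial markers, all 6 present, stayed between 71.8 and 98.0 RPKM in all groups. Of 8 lymphocyte markers 2 reached 1 RPKM in 3 libraries, and the sum was 0.273 to 4.91 RPKM, with 0.759 to 0.975 RPKM in LF+CR and 2.19 to 4.77 RPKM in HF+CR. Of 5 adipocyte markers only Cfd did so, and the sum was 0.0378 to 3.52 RPKM in LF, 0 to 8.70 RPKM in LF+CR with the highest in LF+CR 1, 3.98 to 14.5 RPKM in HF and 0.0917 to 1.12 RPKM in HF+CR. In HF and HF+CR these sums were Cfd alone, with Adipoq, Lep, Plin1 and Retn at 0, whereas LF+CR 1 also held Retn at 1.48 RPKM. Bile duct markers, 4 of 7 at 1 RPKM in 3 libraries, summed to 15.5 to 147 RPKM in LF, 28.8 to 40.9 RPKM in LF+CR and 42.9 to 74.6 RPKM in HF.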

How the data were processed

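Liver polyA RNA of 18 samples was analysed in 6 groups of 3, taken with their replicate numbers from the sample titles. The authors deposited RPKM per RefSeq transcript, made with TopHat 1.4.1 and Cufflinks 1.3.0 on mm10 per the submitters' processing notes; the annotation and the role of each tool are not given in the sources used here. The deposited per-sample values and the joint table held the same 550476 values. Depth is unknown, apart from an estimate from the steps between low values of 1000 to 4000 base transcripts, and no counting interval was computed.

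Of 30582 rows, 29434 were named by RefSeq (GRCm38.p6) and 183 by GENCODE, and 965 kept their identifier. A gene with several rows is given by its most abundant row. Genes at 1 RPKM or more in 3 libraries, 10358 in all, were fitted as log2(RPKM + 1), which understates changes of low genes, with limma 3.58.1 in R 4.3.3. The model had 6 group means, an intensity trend and 12 residual degrees of freedom. Tests were two-sided with Benjamini-Hochberg adjustment over all genes tested, called under 0.05. The fit was tested on simulated data.

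The 7 genes, the lists of related genes and markers, and the alternatives were chosen with earlier results of these data known. Genes named are the 7, every called related gene, close family members and the nearest tested gene on each side. Also named are the 3 genes most correlated with each after subtracting diet means, with the 7 and provisional names left out. A result that this rule would name is not reported here. Some further genes of the lists are named with their values, chosen after these were seen. Alternatives were the pseudocount (0.1), the filter (none, or a mean of 5 RPKM), scaling, variance trend, groups fitted, summed rows, the replicate block and libraries left out. Replicate numbers were not taken to pair the samples, since in no comparison were all 3 correlations over 0.1.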

Additional observations from a re-analysis of the deposited data

How the results depend on the processing

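Calls of members in HF against LF and HF+CR against LF+CR are not independent of their choice. Members called in HF against LF numbered 1 with median-of-ratios scaling, 2 with quantile normalization and 1 without the bile duct libraries. In HF+CR against LF+CR the number was 1 without the filter, 1 with only the groups compared and 0 without the pancreas libraries, and 1 to 3 with 1 library left out. In HF+Ex against LF+Ex it was 1 without the filter, 1 without the pancreas libraries, and 1 to 4 with 1 library left out. In LF+Ex against LF, HF+Ex against HF, Ex averaged over both diets and the Ex by diet interaction, no member was called under any setting run. Related genes called in LF+CR were 4 without the filter, 4 with only the groups compared and 4 without the pancreas libraries, and 3 to 10 with 1 library left out. In HF+CR they were 2 at a mean of at least 5 RPKM, 2 with median-of-ratios scaling, 3 with quantile normalization, 2 with rows summed, 4 without the bile duct libraries, and 0 to 3 with 1 library left out.

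In no comparison were the correlations of deviations of all 3 same-numbered pairs over 0.1 (range -0.243 to 0.313), so the samples are taken to share only a number. With the replicate block, 3 related genes were called in HF+CR against HF (Spcs3 gained a call, adjusted p = 0.0480 from limma) and 6 in place of 9 in LF+CR against LF, where Acss2 (0.0606), Acsf3 (0.0588) and Acsm1 (0.0685) lost their calls. The counts of members called did not move. The cause of these changes was not tested.

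Signs that turned belonged to differences that were not called. Serpinb1a in HF+CR against LF+CR was -0.09 without the pancreas libraries. With median-of-ratios scaling Paqr7 was 0.00 in LF+Ex and 0.05 for Ex over both diets (0.05 with quantile normalization), and 4930480G23Rik was -0.07 in the Ex by diet interaction and -0.04 in HF+Ex against LF+Ex (-0.14 and -0.12 with quantile normalization). Slc13a3 for Ex over both diets was 0.00 with a pseudocount of 0.1. In HF+CR without the bile duct libraries Mmd was 0.03, Paqr9 0.12 and Wrnip1 0.00. With 1 library left out, Serpinb1a ran from -0.75 to 0.10 in LF+Ex, -0.07 to 0.66 in HF+CR against LF+CR and -0.35 to 0.50 in HF+Ex against LF+Ex. Paqr7 ran from -0.50 to 0.05 in LF+Ex, -0.01 to 0.12 in HF+Ex and -0.22 to 0.06 for Ex over both diets. Tlr12 ran from -0.41 to 0.02, -0.18 to 0.05 and, for the interaction, -0.10 to 0.33. Slc13a3 ran from -0.10 to 0.11 for Ex over both diets, Acss3 from -0.33 to 0.02 in HF+Ex and -0.34 to 0.01 in HF against LF, and 4930480G23Rik from -0.04 to 0.11 for the interaction and -0.07 to 0.09 in HF against LF. In HF+CR Mmd ran from -0.34 to 0.03, Paqr9 from -0.55 to 0.12 and Wrnip1 from -0.14 to 0.00. With a pseudocount of 0.1 the CR differences of the low genes were larger in size, -2.73 and -2.97 for Serpinb1a, -1.96 and -1.85 for Tlr12, and -2.13 and -1.32 for 4930480G23Rik, which was at -1.14 on LF with quantile normalization.

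Of all genes, limma called 673 in LF+CR against LF (200 to 852 over the other settings, 250 to 860 with 1 library left out), 145 in HF+CR against HF (27 to 390, and 12 to 296, the fewest without HF 2), 42 in HF against LF (0 to 283, and 0 to 91), 1012 in HF+CR against LF+CR (131 to 1385, and 430 to 1231) and 533 in HF+Ex against LF+Ex (33 to 1114, and 58 to 845). In HF against LF 64.3% of these were higher, 50% with median-of-ratios and 45.2% with quantile scaling. Depth is unknown, so no limit that it sets was computed.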
